A study of Mus musculus with 14 samples.

Results

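The nuclear genes for the subunits of mitochondrial oxidative phosphorylation (OXPHOS) were described in CD4+ T-cells of Roquin san/+ and wild-type mice. They were taken by name alone, as every gene on the array called Nduf (a, b, c, s or v with a number), Sdha to Sdhd, Uqcr, Cox4 to Cox8 with a letter, or Atp5. This rule gave 85 of the 36870 names on the array, represented by 131 of its 56605 probes. By name, 37 belonged to complex I, 4 to complex II, 8 to complex III, 18 to complex IV and 18 to complex V. The naming rule also took Atp5s and Atp5sl, whose products are not subunits of the enzyme, and the pseudogene Atp5c1-ps. Ndufa4 was kept with complex I by its name, although its product is now placed with complex IV.

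RNA from isolated CD4+ T-cells was hybridised to 14 one-colour arrays. Of these, 7 carried RNA of Roquin san/+ mice, which are heterozygous for the sanroque mutation of Roquin (Rc3h1), an RNA-binding repressor of messenger RNA, and 7 carried RNA of wild-type mice. No treatment was named for either genotype, and the age of the mice was not given in the sources used here. The arrays of each genotype were lettered A to G, and nothing in the labels said whether each letter was a separate animal, so the P-values measure only the spread between these samples.

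Oxidative phosphorylation passes electrons from NADH (complex I) and succinate (complex II) through complex III to oxygen at complex IV, and complex V (ATP synthase) makes ATP from the proton gradient that results. Most subunits are encoded in the nucleus, imported into the mitochondrion and assembled with a few subunits encoded by mitochondrial DNA. T-cells rely on this pathway at rest and enlarge it, beside glycolysis, when they are activated.

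Promoter sequences show a feature that the naming rule did not use. Nuclear OXPHOS genes are known targets of the transcription factors NRF1 and YY1 and of the ETS factor GABP. RefSeq promoters (GRCm38.p6, from 250 bases before the start to 50 after it) were found for 69 of the 85 genes, 3 of them under a newer symbol. The NRF1-type motif TGCGCANGC, read on both strands, occurred in 12 of the 69 (17.4%), against 10.8% of the 6626 matched genes tested on the array and 4.70% of all 27025 symbols. The YY1-type motif AANATGGCG was found in 11 of 69 (15.9%), against 7.11% and 2.76%. The ETS-type motif CCGGAAG was found in 16 of 69 (23.2%), close to the 23.3% of the tested genes and above the 9.93% of all symbols. None of the motifs contains another, and 35 of the 69 promoters held at least 1 of the 3 and 4 held more than 1.

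The following 30-base windows, read 5′ to 3′ along the gene, show the NRF1-type match in capitals. They are shown for genes described below whose match lay wholly before the start, which leaves out Ndufa8 and Uqcrc1.
Atp5g2, chr15:102671067-102671096, minus strand: tccggccgcGCATGCGCAgagccttccctc
Atp5l, chr9:44920962-44920991, minus strand: accaataacGCATGCGCAtttcccccactt
Cox6a1, chr5:115349056-115349085, minus strand: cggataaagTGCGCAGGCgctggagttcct
Ndufb4, chr16:37654540-37654569, minus strand: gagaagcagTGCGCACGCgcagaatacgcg
Ndufs5, chr4:123718265-123718294, minus strand: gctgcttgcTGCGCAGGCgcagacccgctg
Sdha, chr13:74350276-74350305, minus strand: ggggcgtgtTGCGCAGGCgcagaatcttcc
Sdhd, chr9:50603909-50603938, minus strand: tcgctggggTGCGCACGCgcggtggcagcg
The capitals of Atp5g2 and Atp5l are the motif on the opposite strand. A match of letters is a description and not a binding site.

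All signals below are log2 processed signals less the 75th percentile of their array, so that 0 is the level of that percentile and 1 unit is a factor of 2. Levels are compared between arrays for 1 probe and not between probes. A gene was represented by its tested probe with the highest mean, and the test took probes that Feature Extraction called well above background on every array of a genotype, in either or both. Of the 85 genes, 76 were tested, by 100 of the 131 probes. These were 36 genes of complex I, 4 of complex II, 8 of complex III, 11 of complex IV and 17 of complex V. Of the 76, 75 were represented by a probe that passed in both genotypes, and Ndufa11 by a probe that passed through the Roquin san/+ arrays alone. All 76 were well above background on the 12 well-placed arrays, and no member spot was saturated.

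The arrays were not equal in quality. On Roquin san/+ array G and wild-type array E the spots lay 2 grid rows away from their probe names and were moved back. After the move they still called 21.9% and 19.4% of probes well above background, against 53.4% to 75.5% on the others, and their dimmest probes shared 1 floor value. Roquin san/+ replicate C was dim, with a 75th percentile of 84.6 against 284 to 811 elsewhere. Of the 2 slides, slide 1 held 5 arrays of Roquin san/+ beside 2 of wild-type, and slide 2 held 2 beside 5. All 7 T-cell markers found on the array were above background on the 12 well-placed arrays, with a summed level of 3.89 to 5.25 in Roquin san/+ and 4.06 to 5.23 in wild-type. Of the markers of other cells, 6 of 8 for B-cells, 7 of 9 for myeloid cells, 5 of 6 for NK cells, 2 of 6 for erythroid cells, 1 of 2 for CD8 T-cells and 4 of 4 for plasma cells were above background on all 12. No marker was at background on all of them. Summed myeloid markers ranged from 1.99 to 5.59 (median 2.76) in Roquin san/+ and from 0.51 to 3.76 (median 1.61) in wild-type, with 5 of the 7 wild-type arrays below every Roquin san/+ array. The same ranges were −1.32 to 4.30 and −2.18 to 2.34 for B-cells, −1.81 to 2.77 and −2.42 to −0.47 for NK cells, −1.40 to 5.87 and −1.47 to 4.69 for erythroid cells, and −3.65 to 1.25 and −3.79 to −2.15 for CD8 T-cells. The highest value in each of these 5 lists was that of Roquin san/+ replicate F. Summed plasma cell markers ranged from 2.08 to 4.22 in Roquin san/+ and from 1.70 to 4.03 in wild-type.

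No OXPHOS gene passed the test between the genotypes. None of the 76 genes had an adjusted P below 0.05 in limma with Benjamini-Hochberg adjustment over all 12864 tested probes, of which 0% passed and 522 had an unadjusted P below 0.05. The lowest adjusted P of any OXPHOS gene was 0.959. At an unadjusted P below 0.05, 1 gene was lower in Roquin san/+ (Ndufa8) and 0 were higher, against 0.88% lower and 3.58% higher among the 10112 tested names. The 95% confidence intervals of 75 of the 76 genes included 0. Those of 75 genes also lay wholly within 1 log2 unit of 0, the exception being Atp5l. The intervals of 32 genes lay within 0.5 log2 unit of 0.

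The direction of the differences was uneven. The log2 difference, Roquin san/+ minus wild-type, was negative for 68 of the 76 genes (89.5%), against 50.4% of all tested names. The median difference was −0.16, a ratio of 0.893, against −0.00210 over all tested names. The differences ran from −0.59 (Atp5l) to 0.08 (Ndufa11). The pooled standard deviation between arrays exceeded the size of the difference for 69 of the 76 genes, with a median of 0.35. The genes shared their arrays and moved together on them, so that 68 negative values were not 68 separate observations. In no OXPHOS gene were the 7 Roquin san/+ values all on one side of the 7 wild-type values, against 0.0396% of all tested names.

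**Figure D1:**
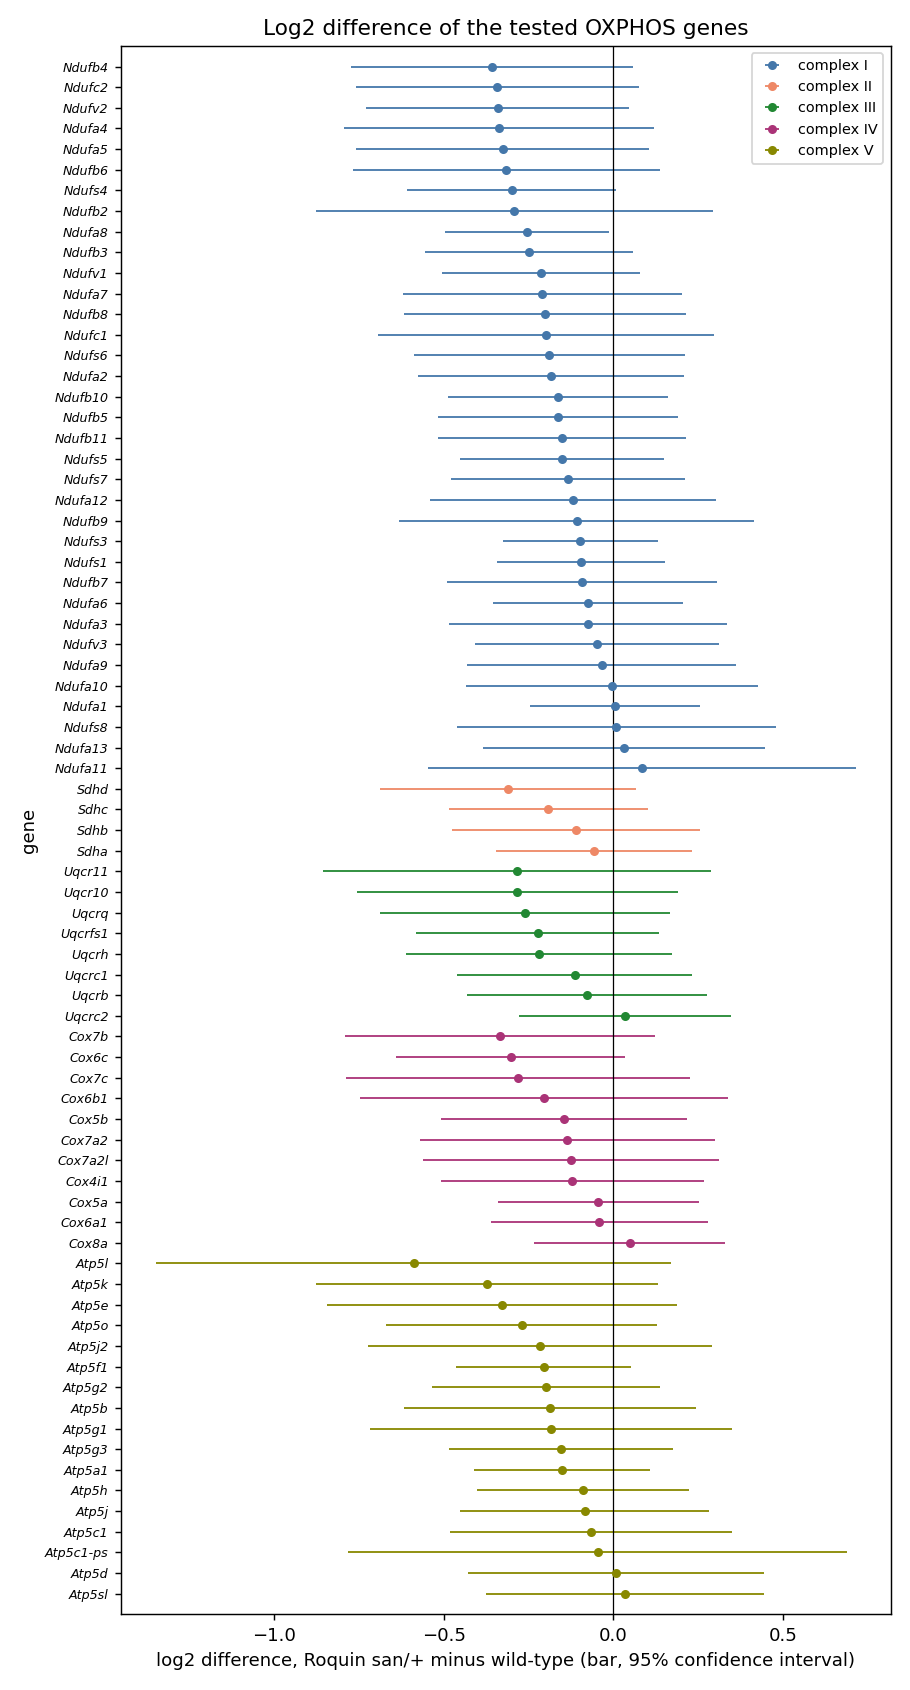
Log2 difference of 75 of the 76 tested OXPHOS genes (horizontal axis, Roquin san/+ minus wild-type; points, difference; bars, 95% confidence interval; colours, complex). The points of 67 genes lie left of 0, and the interval of Ndufa8 alone does not reach it.

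A few arrays carried most of the spread. The deviation of each gene from its own mean over the 14 arrays was taken, and its median over the 76 genes was found for each array. In Roquin san/+ these medians were −0.47 on replicate C, −0.26 on F, −0.14 on A, −0.08 on G, 0.01 on B, 0.08 on D and 0.27 on E. In wild-type they were −0.16 on E, −0.10 on D, −0.05 on B, 0.03 on G, 0.09 on F, 0.23 on A and 0.57 on C. The ranges of the genotypes overlapped widely, and the means were −0.08 ± 0.24 and 0.09 ± 0.25 (SD, n = 7 each).

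Wild-type replicate C held the highest wild-type value of 68 of the 76 genes and Roquin san/+ replicate C the lowest Roquin san/+ value of 45. On wild-type replicate C 72 genes were above their own mean, and on Roquin san/+ replicate C 7 were. In 56 genes wild-type replicate C exceeded every Roquin san/+ array. Roquin san/+ replicate E ran against its group, with 69 genes above their mean. These counts rest on 1 probe for each gene. On this array the other probes of Atp5a1 (−2.46) and Ndufa10 (−3.09) were the lowest of their group. Those of Atp5k (1.93) and Atp5o (−0.11) were the highest. The arrays with the lowest summed T-cell markers were Roquin san/+ F (3.89), wild-type C (4.06) and Roquin san/+ C (4.26), and these arrays stood at both ends of the OXPHOS order. In such bulk RNA, fewer cells of a type and less RNA per cell cannot be told apart. The part of marker levels and of signal brightness in the OXPHOS values was not tested.

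**Figure D2:**
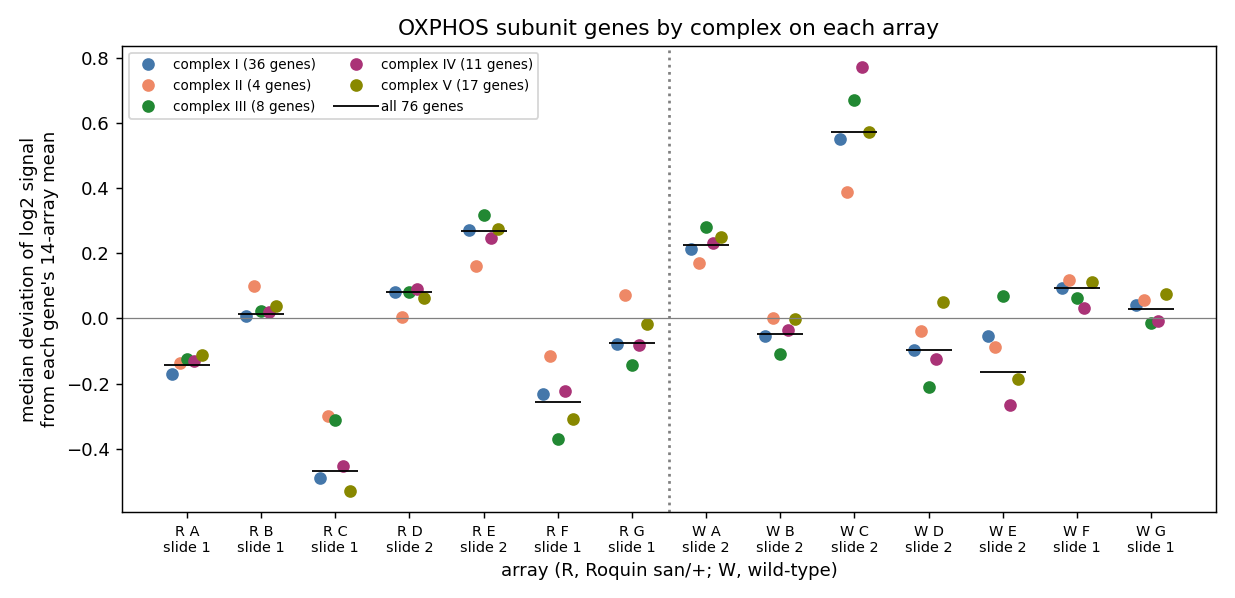
Median deviation of log2 signal from each gene's mean over the 14 arrays (vertical axis), for the genes of each complex (coloured points) and for all 76 genes (black bars), on each array (horizontal axis, with its slide). Over all genes wild-type replicate C is highest at 0.57 and Roquin san/+ replicate C lowest at −0.47. The complexes spread within an array, from 0.39 (complex II) to 0.77 (complex IV) on wild-type replicate C. On wild-type replicate E they run from −0.27 (complex IV) to 0.07 (complex III).

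Slide and genotype overlapped in part, and the direction depended on the slide. On slide 1 the 5 Roquin san/+ arrays had a median deviation of −0.14 (−0.47 to 0.01) and the 2 wild-type arrays 0.06 (0.03 to 0.09). On slide 2 the 2 Roquin san/+ arrays had 0.17 (0.08 to 0.27) and the 5 wild-type arrays −0.05 (−0.16 to 0.57). The median log2 difference of the 76 genes was thus −0.23 on slide 1, with 68 genes lower in Roquin san/+, and 0.089 on slide 2, with 24 genes lower. With slide as a block it was −0.07, with 58 genes lower. Only 17 genes were lower in Roquin san/+ on both slides, 51 were lower on slide 1 and higher on slide 2, 7 the reverse, and 1 (Ndufb9, by 0.19 and 0.0039) was higher on both.

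Complex I takes electrons from NADH. Its 36 tested genes had a median log2 difference of −0.16, with 32 negative and 4 positive. Over the arrays the median deviation of these genes ran from −0.49 to 0.27 in Roquin san/+ and from −0.10 to 0.55 in wild-type.

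Ndufa8, an accessory subunit of the intermembrane space side, was the gene with the interval that did not reach 0. Its level was −1.60 at the lowest, −1.32 at the median and −1.17 at the highest in Roquin san/+, and −1.30, −1.07 and −0.84 in wild-type. The ranges overlapped between −1.30 and −1.17, with wild-type replicate G the lowest of its group and Roquin san/+ replicate E the highest. The means were −1.35 ± 0.16 and −1.09 ± 0.15 (SD, n = 7 each), a log2 difference of −0.25 (95% confidence interval −0.50 to −0.01, limma adjusted P = 0.959). The difference was −0.16 on each slide taken alone. The probe lies on chromosome 2 at 35891871 to 35891930 (mm9, minus strand).

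Ndufs4, an accessory subunit whose loss causes mitochondrial disease, came next. In Roquin san/+ it was −0.97 at the lowest, −0.52 at the median and −0.17 at the highest, and in wild-type −0.54, −0.29 and 0.08. Roquin san/+ replicates A, C and F lay below every wild-type array and the rest overlapped. The log2 difference was −0.30 (95% confidence interval −0.61 to 0.01), and −0.39 and −0.05 on the slides taken alone.

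**Figure D3:**
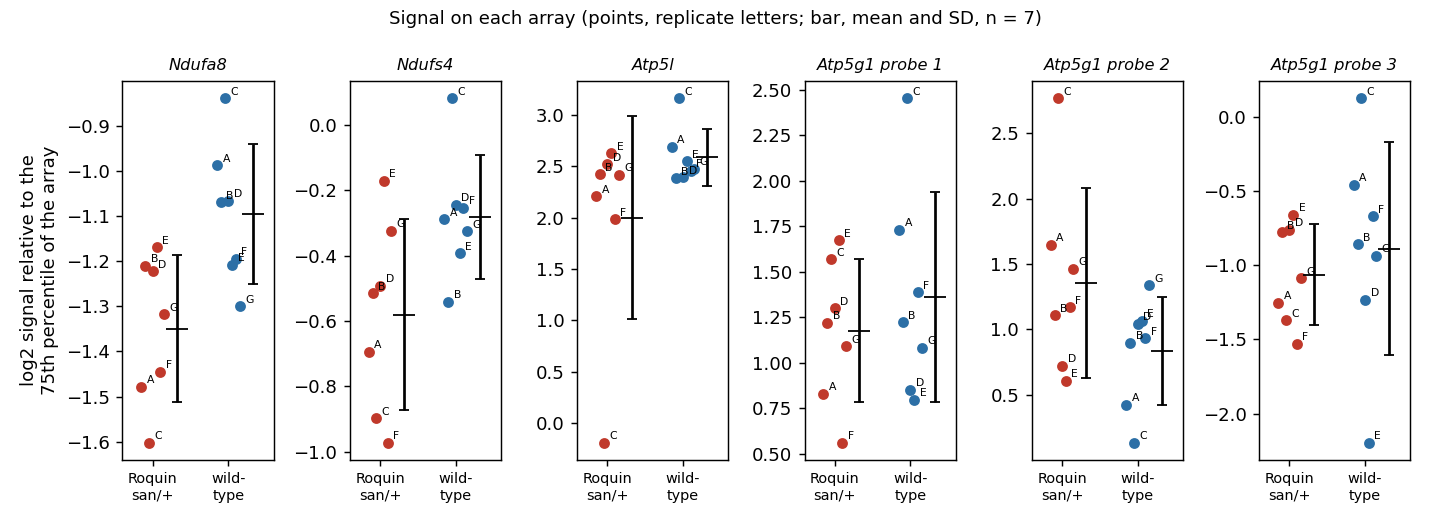
Log2 signal relative to the 75th percentile of the array (vertical axes, a scale for each panel) for Ndufa8, Ndufs4, Atp5l and the 3 probes of Atp5g1, with a point for each array, its replicate letter, and the mean with SD (n = 7) beside each group. Roquin san/+ replicate C lies apart from the rest of its group for Atp5l and for Atp5g1 probe 2, in opposite directions.

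The core subunits of complex I, some of which hold the flavin and the iron-sulphur clusters, varied in size of difference. Ndufv2, an iron-sulphur subunit, ranged from −0.46 to 0.35 (median 0.19) in Roquin san/+ and from 0.06 to 1.1 (median 0.31) in wild-type, a difference of −0.34 (95% confidence interval −0.73 to 0.05). Ndufv1, the flavin subunit, ranged from 0.36 to 0.70 (median 0.54) and from 0.28 to 1.22 (median 0.65), a difference of −0.21 (95% confidence interval −0.51 to 0.08). In both the highest wild-type value was that of replicate C and the lowest Roquin san/+ value that of replicate C.

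Ndufs1, the largest iron-sulphur subunit, differed by −0.09 (95% confidence interval −0.34 to 0.15), Ndufs3 by −0.10 (−0.33 to 0.13) and Ndufs7 by −0.13 (−0.48 to 0.21). Ndufs8 differed by 0.01 (−0.46 to 0.48). For Ndufs3, whose values ranged from 0.48 to 0.82 in Roquin san/+ and from 0.56 to 0.97 in wild-type, the interval was the narrowest of the 76.

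Of the accessory subunits, Ndufb4 had the largest negative difference in the complex, at −0.36 (95% confidence interval −0.77 to 0.06). It ranged from 0.03 to 1.1 (median 0.85) in Roquin san/+ and from 0.76 to 1.85 (median 0.95) in wild-type, with Roquin san/+ C the lowest and wild-type C the highest of all. Ndufc2 differed by −0.34 (−0.76 to 0.07) and Ndufb3 by −0.25 (−0.56 to 0.06). Ndufa11 had the largest positive difference, at 0.08 (−0.55 to 0.71), and wild-type replicate E, a displaced array, was at −4.41 against −2.91 to −2.42 for the other wild-type arrays. Without both displaced arrays the Ndufa11 difference was −0.17.

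Complex II, succinate dehydrogenase, also belongs to the citric acid cycle and has no mitochondrially encoded subunit. All 4 genes had negative differences, with a median of −0.15. Sdhd, a membrane anchor, ranged from −0.50 to 0.08 (median −0.20) in Roquin san/+ and from −0.47 to 0.79 (median 0.20) in wild-type. The groups overlapped over most of the Roquin san/+ range, and the difference was −0.31 (95% confidence interval −0.69 to 0.07). It was −0.30 on slide 1 and −0.23 on slide 2.

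Sdhc, the other anchor, ranged from −2.08 to −1.44 and from −1.90 to −1.33 and differed by −0.19 (−0.48 to 0.10). The catalytic subunits differed less. Sdhb, with the iron-sulphur clusters, differed by −0.11 (−0.47 to 0.25) and Sdha, the flavoprotein, by −0.06 (−0.34 to 0.23). Within Roquin san/+, Sdha was lowest on replicate E (0.03), where most OXPHOS genes were high. The lowest Sdha value of all arrays was −0.04, on the displaced wild-type replicate E. Sdha followed the side of the common median on 7 of the 14 arrays.

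Complex III passes electrons from ubiquinol to cytochrome c. Its 8 genes had a median difference of −0.22, with 7 negative, and −0.07 with slide as a block. Uqcrfs1, the Rieske iron-sulphur protein, ranged from −0.91 to 0.03 (median −0.38) in Roquin san/+ and from −0.49 to 0.30 (median −0.11) in wild-type, a difference of −0.22 (−0.58 to 0.14). It was 0.11 on slide 1 and −0.60 on slide 2, the reverse of the complex as a whole. The core proteins Uqcrc1 and Uqcrc2 differed by −0.11 (−0.46 to 0.23) and 0.03 (−0.28 to 0.35), and Uqcr11, a small subunit, by −0.28 (−0.86 to 0.29). Uqcr11 reached 2.25 on wild-type replicate C against a wild-type median of 0.74.

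Complex IV, cytochrome c oxidase, is the site of oxygen reduction. Of its 18 genes 11 were tested, with a median difference of −0.14 and 10 negative. Cox6c, a small accessory subunit, ranged from 0.76 to 1.51 (median 1.28) in Roquin san/+ and from 1.24 to 2.18 (median 1.48) in wild-type, a difference of −0.30 (95% confidence interval −0.64 to 0.04). It was −0.18 on each slide. Cox7b had the largest negative difference in the complex, at −0.33 (−0.79 to 0.12), and Cox8a the only positive one, at 0.05 (−0.23 to 0.33). The nuclear subunits nearest the catalytic core, Cox4i1, Cox5a and Cox5b, differed by −0.12 (−0.51 to 0.27), −0.04 (−0.34 to 0.25) and −0.14 (−0.51 to 0.22).

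Several complex IV subunits exist in a widely expressed form and in forms known from heart, skeletal muscle, lung or testis. The widely expressed forms Cox4i1, Cox6a1, Cox6b1, Cox7a2, Cox7a2l, Cox7b, Cox8a and Ndufa4 were all well above background on the 12 well-placed arrays. Of the restricted forms, Cox4i2, Cox6a2, Cox6b2 and Cox7a1 were also above background on all 12, Cox7b2 on 9, Ndufa4l2 on 6 with one probe and 5 with the other, and Cox8b and Cox8c on 0. None of these 8 passed the filter. The longest run of bases shared by probes of 2 forms of a complex IV subunit was 8. Probes were compared only with each other and not with the transcripts of the other forms. The run therefore cannot show whether a probe also bound another form. Atp5s, above background on 11 of the 12, completed the 9 genes that were not tested.

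Cox4i2, the form of subunit IV known from lung, was the untested gene with the clearest difference when detection was counted over the 12 well-placed arrays. On these arrays it ranged from −4.91 to −2.59 (median −3.92) in Roquin san/+ and from −5.06 to −4.03 (median −4.97) in wild-type. The highest value was on the dim Roquin san/+ replicate C, and the groups overlapped between −4.91 and −4.03. The log2 difference over all 14 arrays was 0.74 (95% confidence interval 0.07 to 1.40) and did not pass after adjustment. Cox6a2, the heart and muscle form of subunit VIa, differed by 0.80 (0.02 to 1.58) and did not pass either. It ranged from −6.11 to −4.73 in Roquin san/+ and from −7.48 to −5.21 in wild-type on the well-placed arrays. On wild-type replicate E it was at the floor value. Both differences came from a fit whose 28802 tested probes had a median difference of 0.07, with 39.6% negative. Without a filter, over 56092 probes, that median was 0.40 with 23.2% negative. The probes added by these looser filters thus tended to be higher in Roquin san/+.

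Complex V, ATP synthase, had 17 tested genes with a median difference of −0.18 and 15 negative. Of the catalytic and stalk subunits, Atp5a1 (alpha) differed by −0.15 (95% confidence interval −0.41 to 0.11), Atp5c1 (gamma) by −0.07 (−0.48 to 0.35), Atp5d (delta) by 0.01 (−0.43 to 0.44) and Atp5o (the oligomycin sensitivity protein) by −0.27 (−0.67 to 0.13). Atp5f1, subunit b of the stator, differed by −0.21 (−0.46 to 0.05).

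By its probe with the highest mean, Atp5b, the catalytic beta subunit, was held in a narrow range in Roquin san/+, from 2.50 to 2.75 (median 2.61). In wild-type it ranged from 1.72 to 3.39 (median 2.99). The lowest wild-type value was on the displaced replicate E, below every Roquin san/+ array. Wild-type replicates A to D lay above every Roquin san/+ array, and F and G lay within their range. The difference was −0.19 (−0.62 to 0.24). Without both displaced arrays it was −0.38, and on the slides taken alone it was −0.06 and −0.26. The other tested probes of Atp5b ranged more widely in Roquin san/+, from 0.39 to 1.02 and from −4.38 to −2.27. They differed by −0.10 and −0.26. With the former, wild-type replicates A, B and D (0.95, 0.98 and 0.88) lay below Roquin san/+ replicate G (1.02).

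Atp5l, subunit g of the membrane part, had the largest difference of the 76 tested genes, and it rested on 1 array. It was −0.19 on Roquin san/+ replicate C and 1.99 to 2.63 on the other Roquin san/+ arrays, against 2.39 to 3.16 in wild-type. The difference was −0.59 (95% confidence interval −1.35 to 0.17), and −0.22 without Roquin san/+ replicate C. The probe lies on chromosome 9 at 44721421 to 44721480 (mm9, minus strand) and is the only tested probe of the gene.

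The c-ring of ATP synthase is encoded by Atp5g1, Atp5g2 and Atp5g3, which give the same mature protein behind different import sequences. Their best probes differed by −0.18, −0.20 and −0.15. The probe of Atp5g2 was printed at 10 spots of the array, and the log2 signal of these spots had a standard deviation of 0.04 to 0.21 within an array (median 0.08), against a pooled standard deviation of 0.28 between arrays.

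Atp5g1 was measured by 3 probes that did not move together, and their first 30 bases are shown with their positions (mm9, chromosome 11, minus strand).
Probe 1, chr11:95934315-95934374: tgccagtcctggtgctggagtctactgagc
Probe 2, chr11:95930317-95930376: tttcaattattaaaagctttaagggctggc
Probe 3, chr11:95934924-95934983: ccgacgggaattccagaccagtgtcatttc
Probes 1 and 3 lay near each other and differed by −0.18 and −0.17. Probe 2, downstream of both along the gene, differed by 0.52. It was 2.77 on Roquin san/+ replicate C and 0.13 on wild-type replicate C, the highest and the lowest of the 14 arrays, where probe 1 was 1.57 and 2.45.

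Elsewhere the probes of a gene agreed closely in the log2 difference between genotypes, but not always on single arrays. Of the 22 genes with more than 1 tested probe, the median range between probes was 0.08 in log2 difference, and only Atp5g1 exceeded 0.5. The probes of 3 genes differed in sign, these being Atp5g1, Atp5g3 and Ndufs5. No gene had probes of opposite sign of which 1 had an unadjusted P below 0.05. On Roquin san/+ replicate E, Sdhb was 1.23 with its represented probe, the highest of its group. With its other probe it was −2.22, in a group range of −2.34 to −1.04. Ndufv1 was likewise 0.70, the highest, and −3.14 in a range of −4.18 to −2.10. The other probe of Sdhb was also low on wild-type replicate E (−3.29). Both probes of Atp5k and of Atp5o, by contrast, were the highest of their group on Roquin san/+ replicate E.

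The genes varied in how closely they followed the common pattern. A typical gene lay on the same side of its mean as the median of all 76 genes on 11 of the 14 arrays, with a range from 6 (Atp5sl) to 14 (Ndufa12, Ndufb2, Ndufb5 and Atp5o). Of the 76, 30 did so on 12 or more arrays. Among those that followed it on 7 arrays were Atp5b, Atp5g3, Cox7a2l and Sdha. Atp5sl and the pseudogene Atp5c1-ps, which are not subunits, followed it on 6 and 8. With both left out, 67 of 74 genes had a negative difference.

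Other mitochondrial gene lists were measured on the same arrays. Of 78 genes of the mitochondrial ribosome, which translates the mitochondrially encoded subunits, 74 were tested. Their median difference was −0.17, with 70 negative and 4 positive, 1 lower and 0 higher at an unadjusted P below 0.05. It was −0.24 on slide 1 and −0.06 on slide 2. On wild-type replicate C their median deviation was 0.57 and on Roquin san/+ replicate C −0.37, at the same ends as the OXPHOS genes. Of 49 assembly factors 37 were tested, with a median of −0.13 (−0.16 and −0.05 on the slides taken alone) and 26 negative. Ndufaf1, a complex I assembly factor, was the only one with an unadjusted P below 0.05 (−0.31, 95% confidence interval −0.60 to −0.02, limma adjusted P = 0.959). Of 6 complex subunits and partners that the naming rule missed, 5 were tested and all were negative, with a median of −0.22 (−0.08 and −0.20 on the slides taken alone). These were Ndufab1 (−0.22), Cyc1 (−0.19), Cycs (−0.19), Usmg5 (−0.33) and Atpif1 (−0.38), and none had an unadjusted P below 0.05.

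The mitochondrially encoded subunits did not follow the nuclear genes from array to array. All 11 on the array were tested, with a median difference of 0.06, 7 positive and 4 negative, and none with an unadjusted P below 0.05. The median turned with the slide, at 0.41 on slide 1 and −0.38 on slide 2. Their median deviation was 1.41 on Roquin san/+ replicate C, where the nuclear genes were lowest, and 10 of the 11 had their highest value of all 14 arrays there. It was −0.75 on Roquin san/+ replicate E, where the nuclear genes of that genotype were highest. On wild-type replicate C both kinds were raised above their means, at 0.36 and 0.57. COX2, a catalytic subunit of complex IV, was 6.27 on Roquin san/+ replicate C, against 3.96 to 4.71 on the rest of its group and 3.80 to 4.78 in wild-type. The probes of 4 of the 11 are placed on chromosome 1 and not on the mitochondrial chromosome by the array annotation, so a nuclear copy could not be told from the mitochondrial gene there.

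**Figure D4:**
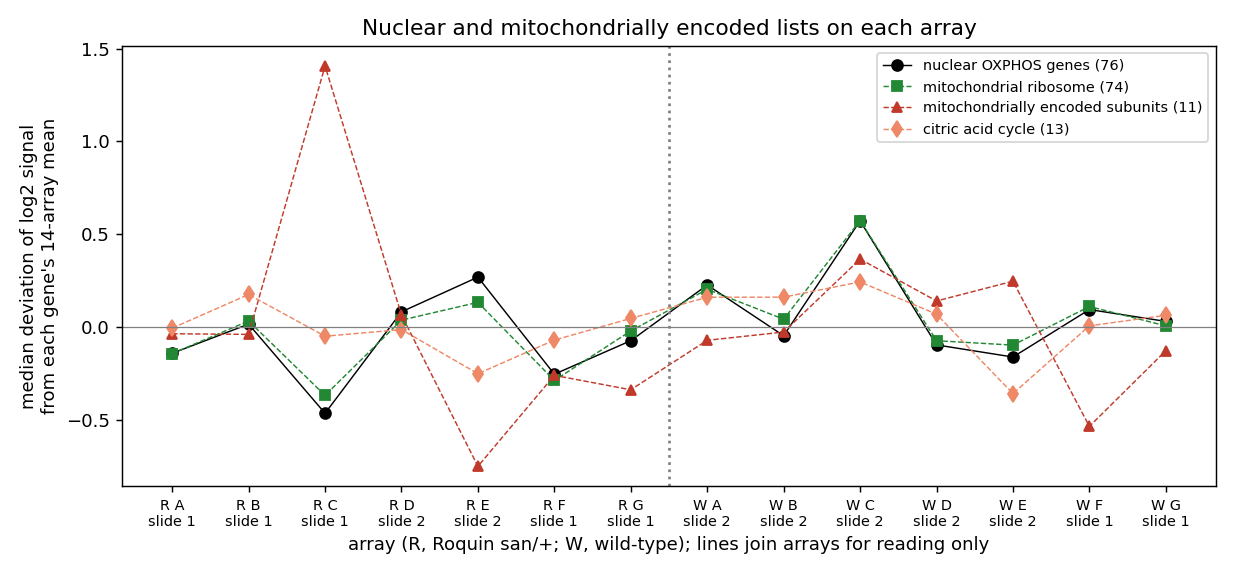
Median deviation of log2 signal from each gene's mean over the 14 arrays (vertical axis) for nuclear OXPHOS, mitochondrial ribosome, mitochondrially encoded and citric acid cycle genes on each array (horizontal axis, with its slide; lines are a reading aid only). The first and second lie together, while the mitochondrially encoded genes reach 1.41 on Roquin san/+ replicate C, where the nuclear OXPHOS genes are at −0.47.

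**Figure D5:**
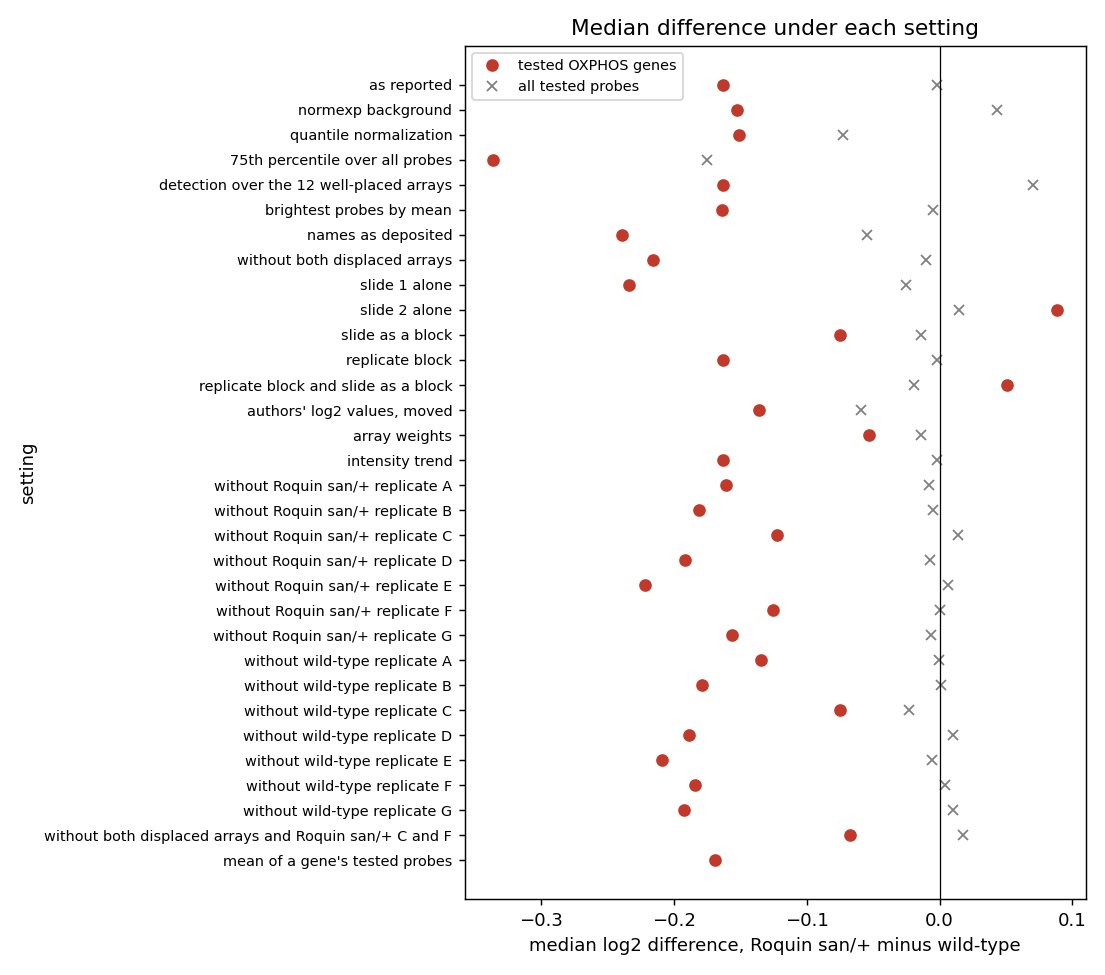
Median log2 difference (horizontal axis, Roquin san/+ minus wild-type) of the tested OXPHOS genes (red points) and of all tested probes (grey crosses, not computed for the mean of probes) under each way of processing the arrays (vertical axis), the fit without a filter left out. The red points lie left of 0 except for slide 2 (0.089) and for a fit with blocks for both slide and replicate (0.05).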

How the data were processed

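RNA of CD4+ T-cells was measured on 14 one-colour arrays. The authors deposited spot intensities from Agilent Feature Extraction 10.5.1.1, per the labels, whose processed signal is background-subtracted. A table of log2 values deposited by the authors served as an alternative. Arrays Roquin san/+ G and wild-type E were moved by 2 grid rows before use. Control spots and outlier flags were left out (on the moved arrays only non-uniformity flags were used), spots of 1 probe were averaged on the log2 scale, and the 75th percentile of each array was subtracted, taken over the 10320 probes that every array called well above background. Of 56605 probes, 12864 entered the test in limma 3.58.1 with R 4.3.3 (lmFit, eBayes, Benjamini-Hochberg, threshold 0.05, no covariate), after a check on simulated data. Python 3.11.15, numpy 2.4.6, pandas 2.3.3 and matplotlib 3.10.9 were used. Of the OXPHOS probes, 2 lacked a value on a displaced array and were left out.

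The genes, lists and rules were chosen with earlier results of these data known. Named genes were fixed core subunits, tissue isoforms, the largest differences of each complex and the 10 lowest P-values, besides any gene past the adjusted threshold or with probes of opposite sign and an unadjusted P below 0.05 (there were none). Others named (Ndufs5, Ndufb9, Ndufa13, Atp5c1-ps, Atp5s, Ndufa12, Ndufb2, Ndufb5 and those of the other lists) were chosen after their values were seen. The number of arrays limits the precision. The deviations of same-lettered arrays correlated at −0.47 to 0.41. Of the 14 arrays, 4 correlated best with the array of their own letter in the other genotype. These mixed values cannot decide whether the letters pair the arrays, and the main fit was unpaired. Promoters and symbols came from RefSeq (GRCm38.p6), and probe positions (mm9) from the file headers. The values of 1 OXPHOS gene are not reported here, although it stays in the counts and medians.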

Additional observations from a re-analysis of the deposited data

Results flagged for a closer look

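Dixon's gap test was applied to 98 groups of 7 arrays, and 9 stood out. The groups were the medians of the complexes and of all OXPHOS genes, and the named genes. For independent groups chance gives about 1 in 20. These groups shared their arrays, and some genes were named for their values, so the 9 cannot be judged by that rate. None was a median. Roquin san/+ replicate C lay below its group for Atp5l (−0.19, others 1.99 to 2.63), Atp5c1 (1.07, others 1.71 to 2.0) and Cox6c (0.76, others 1.19 to 1.51). Wild-type replicate C lay above its group for Atp5l (3.16, others 2.39 to 2.69), Atp5f1 (1.57, others 0.99 to 1.19) and Cox7b (1.84, others 0.44 to 1.0), and below it for Atp5sl (−1.23, others −0.69 to −0.38). The displaced wild-type replicate E lay below its group for Atp5c1 (0.83, others 1.75 to 2.17) and Ndufa11 (−4.41, others −2.91 to −2.42). No cause was tested.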

How the results depend on the processing

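No OXPHOS gene had an adjusted P below 0.05 in any limma fit. The median difference stayed negative except on slide 2 (0.089, 31.6% of genes negative) and under blocks for both replicate and slide (0.05, 38.2% negative). It was −0.15 with quantile normalization, −0.34 with the 75th percentile over all probes (where the median of all tested probes was −0.17), −0.07 with slide as a block (76.3% negative), −0.05 with array weights (61.8% negative), −0.22 without both displaced arrays, −0.24 with the names as deposited, and −0.07 in a fit chosen after seeing the data that left out both displaced arrays and Roquin san/+ replicates C and F. Leaving out 1 array at a time gave −0.22 (without Roquin san/+ E) to −0.07 (without wild-type C), and shares of negative genes from 77.6% (without Roquin san/+ C) to 96.1%. At an unadjusted P below 0.05 the lower genes numbered 0 to 7 when 1 array was left out, 5 without both displaced arrays, 2 with the names as deposited, and 0 with the percentile over all probes, without a filter, with detection over the 12 well-placed arrays, on slide 2 alone, and with slide, replicate, or both as blocks. Each letter held 1 array of each genotype, so the replicate block alone could not change any log2 difference. The median under it was therefore −0.16 by design, with 0 lower genes. The higher genes numbered 2 without a filter (Cox4i2 and Ndufa4l2, the latter at the floor value on both displaced arrays), with detection over the 12 arrays (Cox4i2 and Cox6a2), and in the fit chosen afterwards (Cox7a2l and Ndufa13), and 0 otherwise. Among all tested probes, an unadjusted P below 0.05 in either direction was found for 324 to 789 of 12864 without 1 array. It was found for 625 without both displaced arrays, 463 in the fit chosen afterwards and 58 of 12860 with the names as deposited. It was found for 782 of 56092 without a filter and 1100 of 28802 with detection over the 12 arrays. Slide 2 alone gave 301 and the percentile over all probes 559. Slide, replicate and both as blocks gave 253, 624 and 536. Of 43 named genes, 19 changed sign on slide 2 alone and 16 with both blocks. The mean of a gene's tested probes gave −0.17. The causes were not tested, and dim isoforms could not be judged on the displaced arrays.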

Other observations

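Genes of the citric acid cycle, which feeds electrons to complexes I and II, had a median difference of −0.08 over 13 tested of 16, with 11 negative and 2 positive (−0.06 on slide 1 and −0.15 on slide 2) and none with an unadjusted P below 0.05. Cs, citrate synthase, often used as a measure of mitochondrial content, differed by −0.02 (95% confidence interval −0.24 to 0.19).

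Of 16 nuclear regulators of mitochondrial genes 13 were tested, with a median of −0.06 (−0.17 on slide 1 and 0.06 on slide 2) and 9 negative. Nrf1, whose motif is shown above for OXPHOS promoters, was the only one with an unadjusted P below 0.05. Its level had a mean of −1.57 ± 0.12 for Roquin san/+ against −1.30 ± 0.15 for wild-type (SD, n = 7 each), a difference of −0.27 (95% confidence interval −0.50 to −0.05, limma adjusted P = 0.959). Tfam, a factor for mitochondrial DNA, differed by −0.21 (−0.60 to 0.18), Gabpa by 0.05 and Yy1 by −0.06. Whether the levels of Nrf1 or the other regulators bear on the OXPHOS values was not tested.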
